A study of Mus musculus with 3 samples.

Results

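Accessible chromatin was described at 10 mouse genes of the neuronal cytoskeleton, namely Nefh, Nefm, Nefl, Ina, Map1b, Map2, Mapt, Tubb3, Dcx and Dclk1, in 3 ATAC-seq peak lists. ATAC-seq marks open DNA by the cuts of a transposase. CPN 1 and CPN 2 were libraries of callosal projection neurons, and a single library, CSMN, came from corticospinal motor neurons. All 3 came from sorted cells of mouse brain, with 50000 cells per biological replicate per the labels, and the sources used here do not give the age, strain, sex or genotype of the mice or the markers of the sort. Peaks of the lists that overlapped by at least 1 bp were joined into regions. A region counted for a gene where it overlapped the gene body or the 10 kb on either side. By this rule 145 of the 204313 regions belonged to the 10 genes, and no region fell to more than 1 of them. They held 109 peaks of CPN 1, 135 peaks of CPN 2 and 77 peaks of CSMN.

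Neurofilaments are the intermediate filaments of mature neurons, built from the light, medium and heavy chains (Nefl, Nefm and Nefh) together with alpha-internexin (Ina), and they set the calibre of large axons. Microtubules form the second framework, with Tubb3 as the neuron-specific beta-tubulin, Map2 as a microtubule-associated protein of dendrites, Mapt (tau) as its axonal counterpart, and Map1b as a form prominent in growing axons. Doublecortin (Dcx) and the doublecortin-like kinase Dclk1 bind microtubules in migrating and young neurons.

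The promoters of 6 of the 10 genes could be read from RefSeq, on the GRCm38.p6 assembly that the name mm10 stands for, and they held 8 annotated starts. Each window ran from 250 bases before to 50 bases after a start, 300 bases in all. The following 6 windows are shown because a region with a peak in all 3 libraries lay over every one of these starts. They also contrast the CpG-rich starts of Ina, Map2 and Tubb3 with those of Dcx and Dclk1, which hold fewer CpG than the median promoter. Capitals mark matches to the short motifs searched on both strands, written 5′ to 3′ along the gene's strand. The windows were Ina at chr19:47014431-47014730 (plus strand), Map2 at chr1:66175079-66175378 (plus), Tubb3 at chr8:123411303-123411602 (plus), the upstream start of Dcx at chrX:143933170-143933469 (minus), and the upstream and downstream starts of Dclk1 at chr3:55242114-55242413 and chr3:55461478-55461777 (both plus).
Ina: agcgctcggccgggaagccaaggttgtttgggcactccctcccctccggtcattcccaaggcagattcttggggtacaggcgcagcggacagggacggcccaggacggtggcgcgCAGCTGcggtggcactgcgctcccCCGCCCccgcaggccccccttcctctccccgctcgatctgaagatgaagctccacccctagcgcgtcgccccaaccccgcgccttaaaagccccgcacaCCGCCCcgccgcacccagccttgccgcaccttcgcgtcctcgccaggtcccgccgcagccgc
Map2: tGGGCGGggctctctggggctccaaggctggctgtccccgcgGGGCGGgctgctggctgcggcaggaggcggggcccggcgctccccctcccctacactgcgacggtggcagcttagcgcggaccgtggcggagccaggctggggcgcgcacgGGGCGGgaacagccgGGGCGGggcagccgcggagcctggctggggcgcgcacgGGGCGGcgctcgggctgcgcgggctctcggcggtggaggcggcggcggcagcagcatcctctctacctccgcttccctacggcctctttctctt
Tubb3: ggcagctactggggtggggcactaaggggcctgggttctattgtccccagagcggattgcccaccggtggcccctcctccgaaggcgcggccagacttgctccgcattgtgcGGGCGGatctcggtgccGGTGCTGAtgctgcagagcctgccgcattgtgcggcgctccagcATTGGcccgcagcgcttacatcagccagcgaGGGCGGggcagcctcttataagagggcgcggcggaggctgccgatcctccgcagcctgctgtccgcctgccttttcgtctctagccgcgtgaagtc
Dcx: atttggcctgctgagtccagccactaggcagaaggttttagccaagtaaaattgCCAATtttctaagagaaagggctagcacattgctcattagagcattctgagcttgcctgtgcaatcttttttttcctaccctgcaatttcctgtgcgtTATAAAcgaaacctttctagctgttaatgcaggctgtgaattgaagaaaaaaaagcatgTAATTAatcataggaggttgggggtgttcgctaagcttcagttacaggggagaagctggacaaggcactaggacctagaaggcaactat
Dclk1 upstream start: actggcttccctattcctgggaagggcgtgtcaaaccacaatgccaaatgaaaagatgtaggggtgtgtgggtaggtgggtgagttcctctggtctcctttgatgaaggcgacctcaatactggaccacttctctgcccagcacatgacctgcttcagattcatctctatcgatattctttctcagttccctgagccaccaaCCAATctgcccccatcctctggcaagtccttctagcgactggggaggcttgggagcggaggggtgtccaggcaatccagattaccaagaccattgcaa
Dclk1 downstream start: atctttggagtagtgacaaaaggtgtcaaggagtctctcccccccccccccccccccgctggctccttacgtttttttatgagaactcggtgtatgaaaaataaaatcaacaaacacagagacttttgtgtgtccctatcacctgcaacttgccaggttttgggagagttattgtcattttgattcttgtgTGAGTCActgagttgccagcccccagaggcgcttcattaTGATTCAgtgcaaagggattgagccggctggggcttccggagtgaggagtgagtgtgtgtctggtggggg

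The 6 genes differed in base composition. GC content was 71.7% at Ina, 65.7% at Map1b, 77.7% at Map2 and 67.3% at Tubb3, with 32, 23, 37 and 26 CpG in the window, against medians of 52.7% GC and 7 CpG over 32817 RefSeq promoter windows of the same length. The starts of Dcx held 43.0% and 44.7% GC with 3 CpG each, and those of Dclk1 held 52.7% and 50.3% GC with 5 and 6 CpG. The GC box GGGCGG, present in 35.6% of all promoter windows, occurred 5 times at Map2 and 2 times each at Ina, Map1b and Tubb3, and at no start of Dcx or Dclk1. TATAAA, in 13.6% of windows, was found at Map1b and Dcx. CCAAT, in 37.4% of windows, was found at Tubb3, Dcx and the upstream start of Dclk1. The E-box CAGCTG, in 16.3% of windows, was found at Ina, and the E-box CAGATG, in 17.2%, at Map1b. TAATTA, in 5.30% of windows, was found at Dcx. TCAGCACC, a part of the RE1 element bound by the repressor REST and present in 1.65% of windows, was found at Tubb3. TGANTCA, a loose form of the AP-1 motif with any base at its centre, was present in 7.81% of windows. It was found 2 times at the downstream start of Dclk1, as TGAGTCA and TGATTCA. The cAMP response element TGACGTCA (1.79% of all windows) and the NRF1 (4.59%) and MEF2 (3.69%) motifs had no match in the 8 windows. Overlaps between motifs were allowed, and a match describes letters and not binding.

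All 6 genes with an annotated start in the RefSeq promoter table had a peak over it in CPN 1, in CPN 2 and in CSMN. Over all protein-coding genes in that table, 10294 of 17492 (58.8%) had a peak over a start in all 3 libraries. Nefh, Nefm, Nefl and Mapt were described from the ends of their gene bodies instead. Values of height are the authors' fold enrichment at the peak summit. A fold is a peak's own value within its list, and the lists differed in median fold (CPN 1 3.82, CPN 2 3.68, CSMN 2.86), so folds were not tested between libraries.

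**Figure D1:**
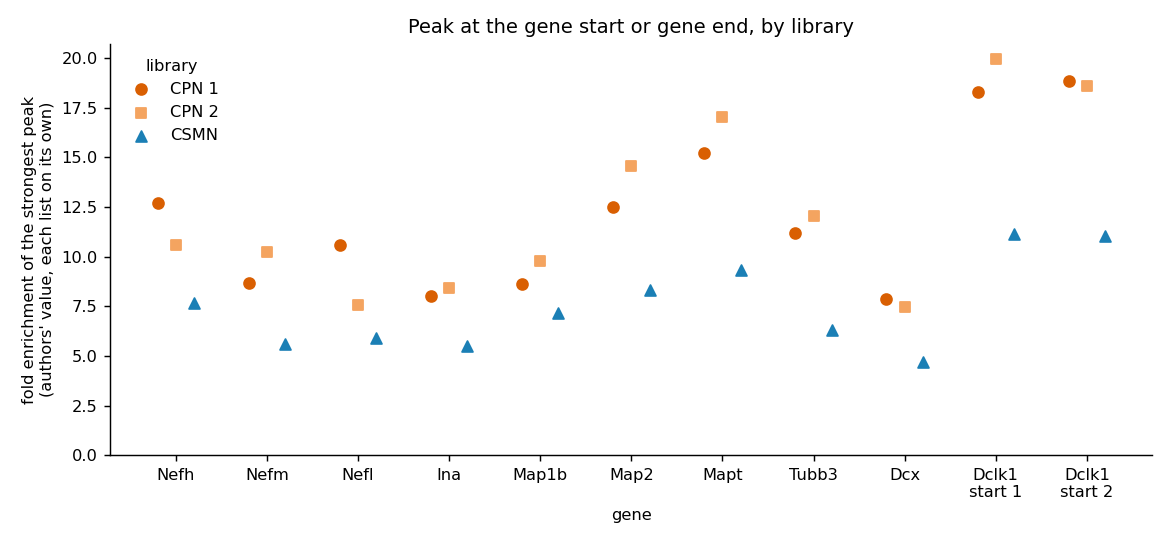
Fold enrichment of the strongest peak at the start or gene end of each gene (vertical axis, the authors' value in each list, starting at 0), with 1 point per library: CPN 1 (circle), CPN 2 (square) and CSMN (triangle). Every gene has a point in each library, Dclk1 is the highest at both starts, and the CSMN points lie between 4.69 and 11.1.

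The neurofilament genes held few regions. Nefh (chr11:4938754-4948064) had 3, Nefm (chr14:68119545-68125004) and Nefl (chr14:68083863-68089095) had 2 each and Ina (chr19:47014681-47025327) had 4, 11 in all against 134 at the other 6 genes. These genes are short, and per 100 kb of window they held 10.2, 7.86, 7.93 and 13.1 regions, against a median of 10.4 over 21887 protein-coding genes. Each had 1 region shared by all 3 libraries, and it lay at or near 1 end of the gene body.

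At Nefh, the heavy chain, the shared region chr11:4946756-4947997 had folds of 12.7, 10.6 and 7.64 (CPN 1, CPN 2, CSMN, an order kept for triplets of values from here on), and it ended 67 bp inside the higher-coordinate end. It also lies within the annotated body of Ap1b1, so it cannot be given to Nefh alone. At Nefm, the medium chain, the region chr14:68123398-68125212 spanned the higher-coordinate end with folds of 8.69, 10.3 and 5.59. At Nefl, the light chain, the region chr14:68083610-68085257 spanned the lower-coordinate end with folds of 10.6, 7.57 and 5.89. Ina had its shared region over the start, chr19:47014121-47015932, with folds of 8.03, 8.42 and 5.52, and this region also overlaps the annotated body of Nt5c2. The order of the CPN libraries differed among these 4 genes: CPN 1 was the higher at Nefh and Nefl, and CPN 2 at Nefm and Ina.

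No neurofilament gene had a CPN-only region (called in CPN 1 and CPN 2 but not in CSMN) or a CSMN-only region (called in CSMN but in neither CPN library). Without CPN 1, where CPN-only means a peak in CPN 2 alone of the CPN lists, they held 5 CPN-only and 2 CSMN-only regions, and in lists of equal length 2 CSMN-only regions, at Nefh and Ina. Their other 7 regions were 5 with a peak in CPN 2 alone, the highest of them at Nefm (130 bp wide, fold 4.01), and 2 with a peak in CPN 1 and CSMN. 1 of the latter, chr19:47019407-47019701 inside Ina, had a fold of 3.02 and a −log10 q of 6.50 in CSMN, and a fold of 2.07 and a −log10 q of 1.88 in CPN 1. The 30.4 kb between the neighbouring genes Nefl and Nefm held 0 regions in any list. With 50 kb on each side there were CPN-only regions, 2 at Nefh, 2 at Nefm, 1 at Nefl and 1 at Ina, and 0 CSMN-only regions. At Nefm these were chr14:68147129-68147486, with folds of 4.86 and 4.38 in CPN 1 and CPN 2, and chr14:68151157-68151504, with folds of 5.90 and 5.84. The added sequence also held regions of other classes. Shared regions there numbered 4 at Nefh, 1 at Nefm, 3 at Nefl and 3 at Ina, and those in CPN 2 alone 6, 3, 2 and 4. The wider windows of Nefl and Nefm overlap, so each of these genes also counts regions of the other. The 1 shared region at Nefm was the Nefl region described above, and 1 of the 3 at Nefl was the Nefm region. Likewise, 1 region in CPN 2 alone at each of these genes was the other's. CPN-only regions made up 19.5% at all genes with 10 kb flanks, and the share with 50 kb was not computed. Without that share the wider counts cannot be read as a trait of these genes.

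The microtubule-associated proteins Map1b, Map2 and Mapt held 79 of the 145 regions. Map1b (chr13:99421464-99516602) had 30 regions, or 26.1 per 100 kb of window, at or above 93.9% of protein-coding genes. Mapt (chr11:104229409-104332090) had 24, or 19.6 per 100 kb (at or above 81.3%). Map2 (chr1:66175202-66442583), the longest of the 3, had 25, or 8.70 per 100 kb (at or above 43.2%).

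Map1b had 14 shared regions, 8 CPN-only regions and 1 CSMN-only region. The region over its start, chr13:99516186-99517072, had folds of 8.61, 9.80 and 7.16. A stronger region in the CPN libraries lay in the gene body 57444 bp from the start, chr13:99458795-99459662, with folds of 13.2, 14.9 and 6.74. Thus the highest fold of Map1b lay at the start in CSMN and inside the gene in both CPN lists. Among the CPN-only regions, 2 had a −log10 q of at least 5 in both lists, called strong here: chr13:99450603-99451091 (folds of 4.74 and 4.81) and chr13:99464667-99464938 (3.79 and 4.68). The CSMN-only region, 133 bp wide beyond the gene's end, had a fold of 2.23.

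Map2 had 12 shared regions, 8 CPN-only regions and 1 CSMN-only region. Its start region, chr1:66174832-66175742, had folds of 12.5, 14.6 and 8.33. The strongest region of the gene in every library lay inside the body, chr1:66386685-66387366, 211597 bp from the first start, with folds of 16.1, 16.8 and 11.0. Another shared region, chr1:66321675-66322291, reached 11.1, 12.3 and 8.71.

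Map2 also held 6 of the 13 strong CPN-only regions of the 10 genes. They were chr1:66177611-66178126 (folds of 4.86 in CPN 1 and 4.95 in CPN 2, 2660 bp from the first start), chr1:66187114-66187652 (4.39 and 4.68), chr1:66221646-66221799 (3.47 and 3.80), chr1:66226421-66226814 (3.10 and 3.36), chr1:66323559-66323749 (4.39 and 5.70) and chr1:66395128-66395753 (5.55 and 4.24). None reached the fold of the start region. The region at 66226421 stood 210 bp from a CSMN peak, while the other 5 stood at least 1068 bp from one.

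Mapt had 6 shared regions, 5 CPN-only regions and 2 CSMN-only regions. Its strongest region, chr11:104231008-104232979, 1972 bp wide and 1599 bp inside the lower-coordinate end, had folds of 15.2, 17.05 and 9.31. Its strong CPN-only regions were narrow: chr11:104278346-104278495, 150 bp wide, had folds of 6.69 in CPN 1 and 6.58 in CPN 2, and chr11:104315821-104315986, 166 bp wide, had 7.31 and 7.44. CPN 1 and CPN 2 were close at both. The CSMN-only regions of Mapt, 138 and 198 bp wide, had folds of 2.26 and 2.18.

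**Figure D2:**
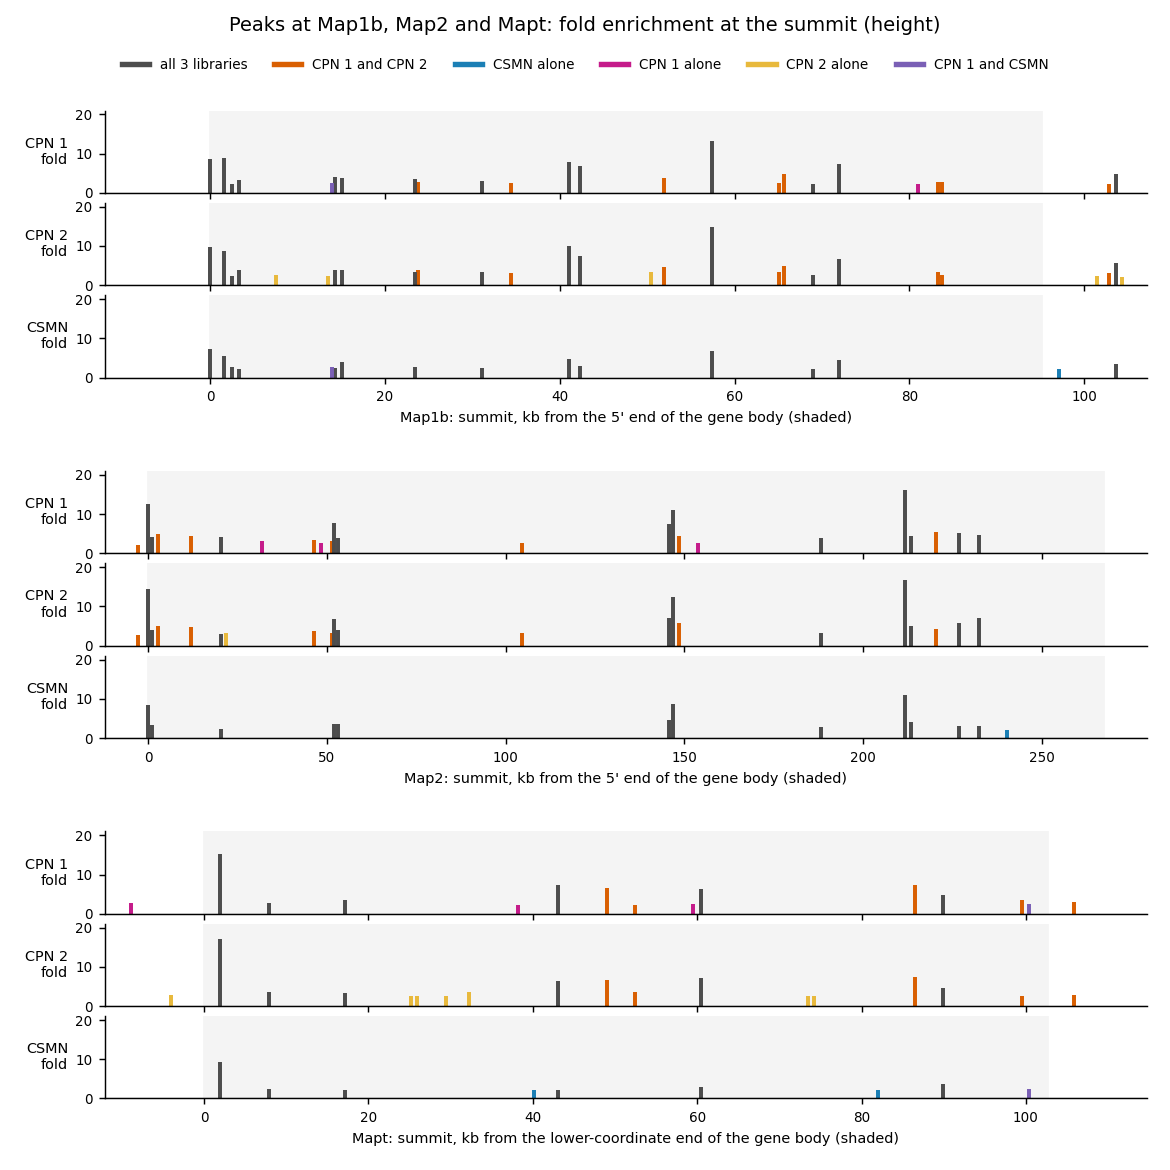
Peaks along Map1b, Map2 and Mapt in each library: the horizontal axis gives the summit's distance in kb from an end of the gene body (shaded), the height of a bar is the authors' fold, and the colour gives the libraries that share the region. The 6 strong CPN-only regions of Map2 are spread over the body, and the highest bars of Map2 lie at the start and deep inside the gene.

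Tubb3 (chr8:123411553-123422015) had 7 regions in a short window, 23.0 per 100 kb. The region over the start, chr8:123410865-123412059, had folds of 11.2, 12.1 and 6.32. A CPN-only region lay 436 bp beyond the higher-coordinate end, past the 3′ end of the gene, at chr8:123422451-123422874. It had folds of 8.67 in CPN 1 and 9.52 in CPN 2, with −log10 q of 43.8 in both, and the nearest CSMN peak was 1228 bp away. Within the CPN lists it ranked above 84.7% and 88.4% of peaks. The window also holds Mc1r and Tcf25, so a region there cannot be given to Tubb3 alone.

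Dcx (chrX:143855842-143933396) had 8 regions, all in the gene body. 4 were shared: the region over the starts, chrX:143932994-143933436, with folds of 7.86, 7.45 and 4.69, a second at chrX:143931412-143932031 (4.74, 4.09 and 3.56), and 2 inside the gene. The strongest, chrX:143902279-143902796, 30685 bp from the upstream start, had 14.3, 16.7 and 9.02, and its neighbour chrX:143906615-143907253 had 8.12, 8.37 and 5.64. The inner region thus stood above the start region in every library.

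Dcx also held the CPN-only region with the highest fold and −log10 q in CPN 1 among the 10 genes. chrX:143881861-143882313, 51249 bp downstream of the upstream start, had a fold of 10.8 and a −log10 q of 62.5 in CPN 1, and 8.62 and 34.7 in CPN 2. The nearest CSMN peak was 19981 bp away. 2 weaker CPN-only regions stood close by, chrX:143884404-143884524 (folds of 2.66 and 3.07) and chrX:143885047-143885209 (4.16 and 3.21). Dcx had 0 CSMN-only regions.

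Dclk1 (chr3:55242303-55539068) had the most regions, 40, of which 21 were shared, 5 CPN-only, 2 CSMN-only, 10 in CPN 2 alone and 2 in CPN 1 alone. Per 100 kb it held 12.6. Both annotated starts lay under strong regions. The upstream one, chr3:55242122-55243543, had folds of 18.3, 19.9 and 11.1, and the downstream one, chr3:55461629-55462212, had 18.8, 18.6 and 11.1. In each library these were the highest folds of the 10 genes.

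Between and beyond the starts of Dclk1, several shared regions stood lower within the CSMN list than within the CPN lists. At chr3:55447937-55448385 the folds were 14.3, 15.8 and 2.52, with a −log10 q of 3.55 for the CSMN peak. At chr3:55248303-55249107 they were 12.6, 16.4 and 3.82, and at chr3:55423791-55424358 they were 12.6, 11.3 and 3.30. The CSMN folds of 3.82 and 3.30 still lay above the median fold of the CSMN list, 2.86. By contrast chr3:55373710-55374119 had 15.2, 15.6 and 8.79. The single strong CPN-only region of Dclk1, chr3:55531229-55531614, had folds of 3.41 and 3.32.

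**Figure D3:**
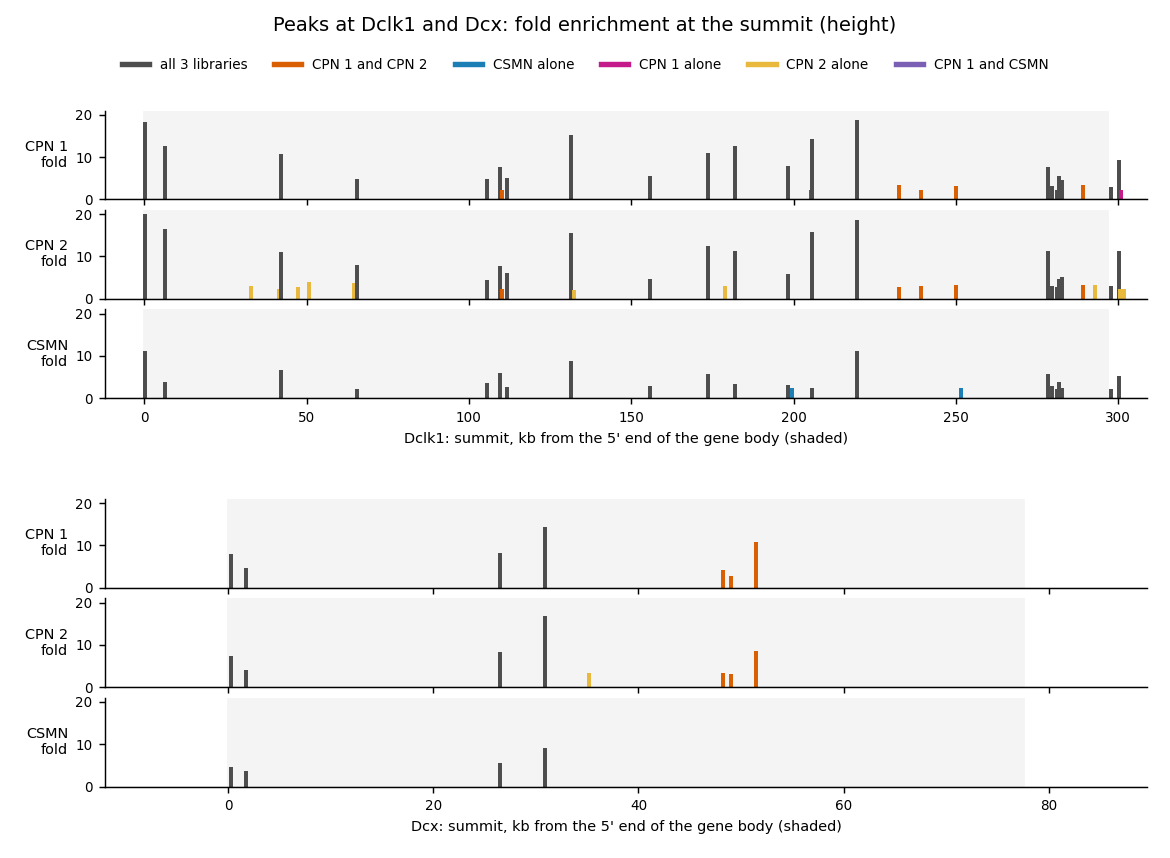
Peaks along Dclk1 and Dcx in each library: the horizontal axis gives the summit's distance in kb from the 5′ end of the gene body (shaded), the height of a bar is the authors' fold, and the colour gives the libraries that share the region. The bars at both Dclk1 starts are tall in all 3 libraries, and the Dcx region at 10.8 and 8.62 fold in CPN 1 and CPN 2 has no bar in CSMN.

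By class, 65 of the 145 regions (44.8%) had a peak in all 3 libraries, against 32.4% of the 134402 regions in the same windows of all protein-coding genes. CPN-only regions made up 30 (20.7%, against 19.5%), and CSMN-only regions 6 (4.14%, against 9.41%). A further 31 (21.4%, against 21.5%) came from CPN 2 alone, 9 (6.21%, against 13.2%) from CPN 1 alone and 4 (2.76%, against 1.86%) from CPN 1 and CSMN. The CPN-only share thus lay near the background. With a single CSMN library there is no replicate spread for CSMN, and no test was made between the cell types. In bulk samples fewer cells of a type and less open chromatin per cell cannot be told apart.

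The class counts rest on lists of unequal length, 134018 (CPN 1), 158779 (CPN 2) and 98067 (CSMN) peaks. With each list cut to its 98067 peaks of highest −log10 p, the 10 genes had 57 shared, 11 CPN-only and 12 CSMN-only regions of 105 (54.3%, 10.5% and 11.4%), against 42.6%, 16.2% and 18.7% at all genes. Only the CPN lists were shortened by this. With a −log10 q of at least 5 required in every list, there were 48 shared, 26 CPN-only and 1 CSMN-only of 99 (48.5%, 26.3% and 1.01%), against 41.2%, 28.8% and 2.62%, the 1 being the Ina region described above. Without CPN 1, with CPN-only then meaning a peak in CPN 2 and none in CSMN, the CPN-only count was 66 and the CSMN-only count 10 of 142 (46.5% and 7.04%), against 48.0% and 13.1% at all genes. Without CPN 2 they were 40 and 6 of 115 (34.8% and 5.22%), against 41.8% and 14.8%. The shared share was above that of all genes in both the equal and the stricter lists, while the order of CPN-only and CSMN-only counts turned over in the equal lists.

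**Figure D4:**
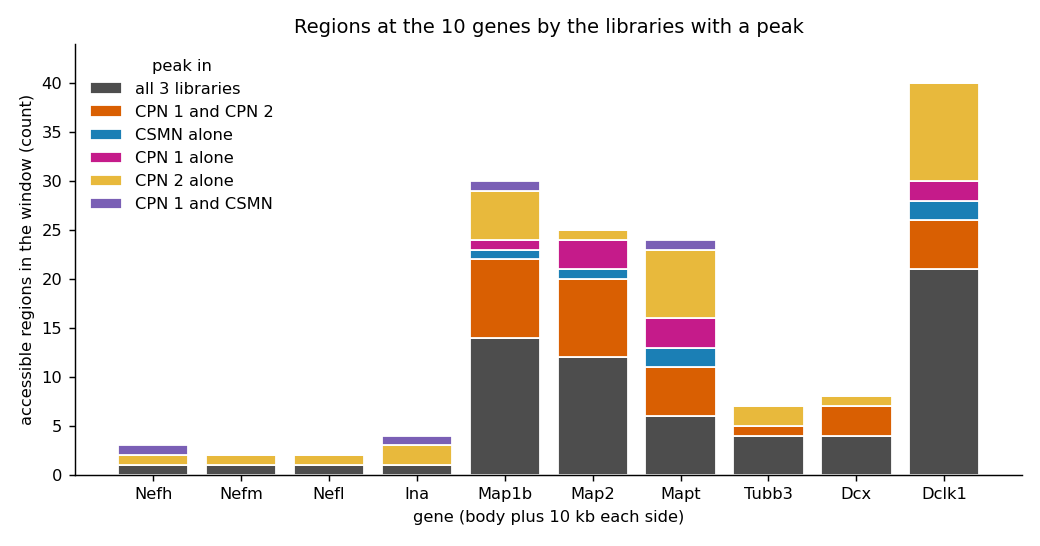
Number of accessible regions per gene window (gene body plus 10 kb on each side), stacked by the libraries that have a peak in the region. Map1b, Map2, Mapt and Dclk1 hold 119 of the 145 regions, and the 4 neurofilament genes have neither a CPN-only nor a CSMN-only region.

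6 of the 10 genes (Map1b, Map2, Mapt, Tubb3, Dcx and Dclk1) held an excess of CPN-only over CSMN-only regions, the 4 neurofilament genes had 0 of both, and 0 had more CSMN-only. Over the 18794 protein-coding genes with a region, 44.2% had more CPN-only and 16.9% more CSMN-only. In lists of equal length 2 of the 10 (Map2 and Dcx) had more CPN-only, against 26.8% of genes, and 4 had more CSMN-only, against 30.6%. These 4 were Mapt (2 CPN-only and 3 CSMN-only), Dclk1 (0 and 3), Nefh (0 and 1) and Ina (0 and 1).

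Shared regions were the widest class by median, with a median of 519 bp (216 to 1972), and 61 of the 65 touched a gene body. Their folds ran from 2.26 to 18.8 in CPN 1 (median 6.85), from 2.26 to 19.9 in CPN 2 (median 6.87) and from 2.07 to 11.1 in CSMN (median 3.56). CPN-only regions had a median width of 256.5 bp and median folds of 3.24 in CPN 1 and 3.39 in CPN 2, with 26 of 30 in a gene body. No share over all genes was computed for these gene-body counts. The 6 CSMN-only regions were 133 to 198 bp wide with folds of 2.17 to 2.43 and −log10 q of 1.99 to 3.14. Strong regions made up 48 of the 65 shared (73.8%, against 75.1% of those at all genes), 13 of the 30 CPN-only (43.3%, against 59.6%) and 0 of the 6 CSMN-only (against 11.0%). The 13 strong CPN-only regions came from 6 genes: 6 at Map2, 2 each at Map1b and Mapt and 1 each at Tubb3, Dcx and Dclk1. Of these 13, 12 stood more than 1 kb from any CSMN peak, a count with no share over all genes beside it. In lists of equal length 11 were still CPN-only, the exceptions being chr1:66226421-66226814 at Map2 and chr3:55531229-55531614 at Dclk1. The shortened lists began at 4.84 (CPN 1) and 5.37 (CPN 2), near the limit of 5 that defines a strong region. Both exceptions fell under the CPN 2 cut, at 5.09 and 5.20. The 11 thus follow largely from the definition and are no separate check.

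To set shared regions side by side, the fold of each was ranked within its library among the 62435 regions with a peak in all 3, from 0 (lowest) to 100 (highest). This measure, and its threshold of 20 points, were chosen after seeing the values. At the members the median gap between CPN 1 and CPN 2 was 4.48 points and the greatest 28.7. Start and gene-end regions stood at similar ranks in several genes. Tubb3 stood at 79.2, 81.0 and 78.5, Map2 at 83.4, 87.2 and 86.8, and the upstream start of Dclk1 at 93.8, 95.3 and 93.7. At Mapt the region near the lower end stood at 89.2, 91.6 and 89.7. Map1b was higher in CSMN than in either CPN library, at 67.5, 72.5 and 82.7, as was Ina at 63.9, 64.9 and 73.4.

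8 of the 65 shared regions (12.3%, against 7.54% at all genes) ranked at least 20 points lower in CSMN than in both CPN libraries, and 7 (10.8%, against 6.30%) at least 20 points higher. 5 of the 8 belonged to Dclk1. The widest gap was at chr3:55447937-55448385, which ranked 87.5, 89.6 and 15.2. The other 4 were chr3:55248303-55249107 (83.8, 90.6 and 54.1), chr3:55423791-55424358 (83.7, 78.5 and 42.7), chr3:55307584-55308002 (33.8, 62.5 and 1.07) and chr3:55524858-55525202 (29.9, 36.2 and 6.80). Mapt had 2, at chr11:104271954-104272728 (59.9, 50.1 and 1.07) and chr11:104289450-104290130 (51.6, 55.7 and 28.2), and Map1b had 1, at chr13:99474034-99474543 (55.1, 58.7 and 27.6).

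The 7 that ranked higher in CSMN were 3 at Map2, 2 at Tubb3 and 1 each at Map1b and Dclk1. At Map1b, chr13:99500714-99501780 stood at 20.4, 17.8 and 56.1. At Map2, chr1:66228225-66228565 stood at 20.03, 21.7 and 49.0, chr1:66388570-66388955 at 28.3, 34.6 and 58.3, and chr1:66176025-66176543, next to the start, at 25.3, 20.9 and 45.9. At Tubb3, chr8:123412524-123413150 inside the gene stood at 6.55, 14.1 and 37.0, and chr8:123406767-123407105, which overlaps Mc1r, at 2.87, 2.19 and 33.7. At Dclk1, chr3:55521782-55522039 stood at 7.81, 7.14 and 31.0. All 7 stood at 34.6 or lower in both CPN libraries. Over all 65 the median of the CSMN rank minus the mean CPN rank was 1.52 points, against 0.32 over all shared regions.

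**Figure D5:**
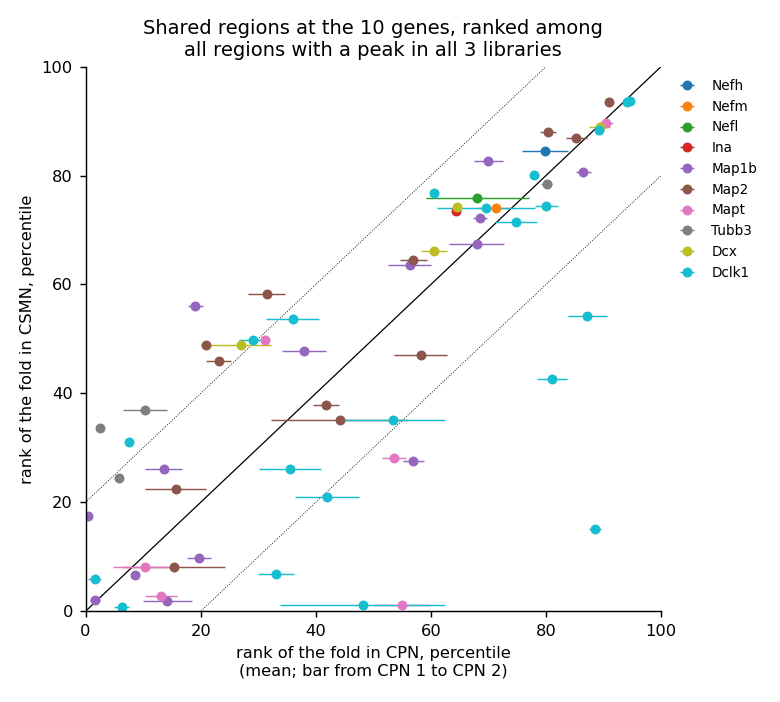
Rank of the fold of each of the 65 shared regions among all 62435 shared regions, in CSMN (vertical axis, percentile) and in CPN (horizontal axis, percentile, mean with a bar from CPN 1 to CPN 2), coloured by gene. The solid line marks equal rank and the dotted lines 20 points either way of it, measured from the mean CPN rank. The 8 and 7 regions counted in the text stood 20 points from both CPN libraries, so some points outside the lines are not among them. The point farthest below the lines is a Dclk1 region at 15.2 in CSMN, and the next is the Mapt region at 1.07.

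The other cytoskeletal genes were described by 5 related lists of 63 genes, none of them a member. They held 919 regions, 309 of them shared, 197 CPN-only and 58 CSMN-only. CPN-only regions made up 23.1% of the 65 at other intermediate filament genes and 24% of the 50 at other tubulin genes. The shares were 18.7% of 331 at other microtubule-associated genes, 23.4% of 235 at motors and kinases and 22.3% of 238 at membrane skeleton genes. These lay within a few points of the 19.5% at all genes. The CSMN-only share was at most 7.56% in any of these gene lists, against 9.41% at all genes. More CPN-only than CSMN-only regions were found at 43 genes, and more CSMN-only at 2, Prph and Tppp, beside the 44.2% and 16.9% given above. These counts and shares come from the peak lists of unequal length and were not repeated in lists of equal length. In the latter, 2 of the members had more CPN-only and 4 more CSMN-only. Genes with a region had a median of 5 regions, and genes with more regions have more room for unequal counts. Among 7 other intermediate filament genes the counts were 15 CPN-only and 3 CSMN-only, led by Lmnb1, a nuclear lamin (6 and 0), with Lmna (2 and 0), Synm (3 and 1) and Vim (3 and 1) tied behind it. Prph, peripherin, which assembles with neurofilament chains, had 0 and 1. Among 11 other tubulin genes they were 12 and 2, led by Tubb2a (3 and 0) and Tuba1c (2 and 0), with Tuba1a, Tuba1b, Tuba4a, Tubb2b and Tubb6 tied at an excess of 1.

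Among 24 other microtubule-associated genes there were 62 CPN-only and 18 CSMN-only regions, led by Map7 (8 and 0), Dclk2, a relative of Dclk1 (7 and 1), and Dpysl5 (7 and 2). The stathmins Stmn1, Stmn2, Stmn3 and Stmn4, which bind free tubulin, had 0 of both among 5, 8, 3 and 4 regions. Map1a (5 regions), Camsap1 (6) and Mapre1 (3) of the same list also had 0 of both. The neurofilament genes, with 0 of both, held 2 to 4 regions each. At all genes these classes made up 19.5% and 9.41% of regions, so counts this small leave few regions for either. Among 15 motors and kinases there were 55 and 17, led by the kinesin Kif5c (14 and 6), the dynein chain Dync1i1 (10 and 3) and the tau kinase Mark2 (7 and 1). Among 6 membrane skeleton genes there were 53 and 18, led by the ankyrins Ank3 (21 and 4) and Ank2 (16 and 7) and by Add2 (6 and 2).

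The labelled cell types were checked by peaks within 1 kb of an end of 4 marker genes per list. Subcerebral markers had one at 4 of 4 genes in every library, and excitatory markers at 3, 4 and 4 in CPN 1, CPN 2 and CSMN. Endothelial and interneuron markers also had one at 4 of 4 genes in every library, oligodendrocyte-lineage markers at 4, 4 and 3, astrocyte markers at 2, 3 and 2, and microglial markers at 2, 1 and 0. Of 17492 protein-coding genes with an annotated start, 63.4% (CPN 1), 62.8% (CPN 2) and 60.3% (CSMN) had a peak over one. That rule is stricter than 1 kb from either end, for which no share over all genes was computed. By class, beside 19.5% at all genes, CPN-only regions made up 41.3% of the 46 at endothelial markers (19 CPN-only and 2 CSMN-only) and 34.3% of the 70 at oligodendrocyte-lineage markers (24 and 5). They made up 28.6% of the 84 at subcerebral markers (24 and 3), 23.3% of the 30 at excitatory markers (7 and 1), 21.4% of the 28 at microglial markers (6 and 1), 20.6% of the 34 at interneuron markers (7 and 1) and 18.4% of the 49 at astrocyte markers (9 and 0). A few genes gave most CPN-only regions of the first 3 lists: Flt1 12, Pdgfra 11 and Mbp 10, and Ldb2 14. In the same lists Cldn5 and Fezf2 had 0 of both classes, and Olig2 had 1 CPN-only and 2 CSMN-only. These shares also come from the peak lists of unequal length. The ends of these markers thus did not separate the labelled cell types, and the part of other cells in the counts was not tested.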

How the data were processed

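Peak lists were analysed from 2 CPN libraries and 1 CSMN library. Tools listed in the submitters' processing notes are MACS2 (2.2.7.1), bedtools (2.29.2) and BWA (0.7.17), with mm10 as the build and no role given to any. Read filters, the transposase shift, removal of duplicates and the caller's mode are not given in the sources used here, and sequencing depth is unknown. The authors deposited, for each peak, a score, a fold enrichment (ratio) at the summit, a −log10 p, a −log10 q and the summit's offset. Deposited −log10 q values started at 1.30 in CSMN and at 1.31 in each CPN list.

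Python 3.11.15 with pandas 2.3.3 joined peaks overlapping by at least 1 bp, which gave the same regions as bedtools 2.31.1, and the classing was tested on simulated data. Gene bodies and promoters came from RefSeq on GRCm38.p6. All 10 genes are named, and for each the start or end region, the strongest inner regions and the CPN-only and CSMN-only regions reaching a −log10 q of 5 wherever they were called are described. For each related list the 3 genes with the greatest excess of CPN-only regions are named, with genes tied for the last place. The members and lists were chosen with earlier results of these data known. Alternatives were a −log10 q of at least 5, lists of equal length, peaks joined at an overlap of 50% of the shorter, gene bodies alone, 50 kb flanks, placing by summit, and leaving out each CPN library. The list of callosal markers is not reported here.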

Additional observations from a re-analysis of the deposited data

How the results depend on the processing

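The total and the shared count stayed within 1.5 times of their values under all alternatives, and the start peaks under the 3 run for them (a peak over the start itself, a −log10 q of at least 5, lists of equal length). The 30 CPN-only regions became 11 in lists of equal length and 47 with 50 kb on each side, and 40 to 66 with 1 CPN library left out (66 without CPN 1), where the share at all genes also rose, from 19.5% to 48.0% without CPN 1 and to 41.8% without CPN 2. The 6 CSMN-only regions became 1 at a −log10 q of at least 5 and 12 in lists of equal length, and 6 to 10 with 1 CPN library left out (10 without CPN 1). The 6 genes with more CPN-only than CSMN-only regions became 2 in lists of equal length and 10 with 50 kb on each side, and 6 to 9 with 1 CPN library left out. In lists of equal length the CPN-only minus CSMN-only count turned to -1 at Mapt and -3 at Dclk1, and went from 0 to -1 at Nefh and Ina. Equal lengths shorten only the CPN lists, whose lowest −log10 q then was 4.84 in CPN 1 and 5.37 in CPN 2, so CSMN-only counts could only rise. The labels give replicate numbers but no pairing of CPN with CSMN libraries, so no paired analysis was made, and no test was made. A missing peak is a value under each list's threshold, at an unknown depth, and not an absence of open chromatin.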
